A study of Mus musculus with 4 samples.

Results

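The transcripts of 9 glycolytic enzymes, Hk1, Hk2, Gpi1, Aldoa, Eno1, Eno2, Pkm, Ldha and Ldhb, were followed across cell states in 4 mouse medulloblastomas. The members are 9 of the 15002 genes in the count tables and were listed by symbol, with earlier results of these data known; no threshold on a measured value chose them. In addition, 3 pairs of isoenzymes, Hk2 and Hk1, Eno1 and Eno2, and Ldha and Ldhb, were compared as ratios within each state.

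By their labels, the 4 tumours were taken at postnatal day 16 from mice that had received no treatment and that carried hGFAP-Cre, SmoM2 and homozygous floxed alleles of both AMPK genes, Prkaa1fl/fl and Prkaa2fl/fl. SmoM2 is an activated Smoothened receptor that switches on Sonic hedgehog (SHH) signalling where the Cre recombinase has acted, and the same Cre deletes the floxed Prkaa1 and Prkaa2, the catalytic α subunits of AMP-activated protein kinase (AMPK). The hGFAP promoter drives Cre in neural stem cells and their glial and neuronal descendants, so the deletion is not restricted to the tumour cells. The labels give all of these alleles to every tumour, which makes 1 group, but the library labelled tumour 1 held almost no Cre transcript, as given with the libraries. The stated contrast with tumours that kept Prkaa1 and Prkaa2 was not analysed here, and the comparisons are between cell states within these tumours. Cells were profiled with Drop-seq, a droplet method that tags the 3′ ends of each cell's transcripts with a cell barcode and counts them by unique molecular identifiers (UMIs).

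Glycolysis splits glucose into pyruvate in the cytosol. Hexokinases trap glucose as glucose-6-phosphate, glucose-6-phosphate isomerase (Gpi1) turns it into fructose-6-phosphate, aldolase cleaves the fructose bisphosphate made next, enolase makes phosphoenolpyruvate, and pyruvate kinase (Pkm) releases pyruvate with ATP. Lactate dehydrogenase interconverts pyruvate and lactate; its tetramers mix the A subunit (Ldha), common in tissues that export lactate, with the B subunit (Ldhb), common in heart and in neurons. Isoenzymes are separate genes for the same reaction: Hk1 is the usual hexokinase of adult brain, Hk2 is linked to growth and is known to be induced by SHH signalling in cerebellar granule neuron progenitors, Eno1 is widely expressed and Eno2 is the neuron-enriched form. Granule neuron progenitors are the cells from which SHH-driven medulloblastoma arises, and they divide before they mature into granule neurons.

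Of the genes of the isoenzyme pairs, the promoter sequences of Hk2, Ldha and Ldhb are shown. Each is the 250 bases before a RefSeq transcription start (GRCm38.p6), printed 5′ to 3′ on the gene's strand, with capitals marking matches on either strand to CACGTG, the E-box recognised by MYC-family factors, or to ACGTG, the core of the hypoxia response element, which also lies inside CACGTG. Hk2 is at chr6:82774455-82774704 on the minus strand and had 2 ACGTG matches and no CACGTG. Ldha is at chr7:46845554-46845803 on the plus strand and had 2 CACGTG matches and 5 ACGTG matches, counted on both strands. A window at another Ldha start, chr7:46846832-46847081, had neither. Ldhb is at chr6:142507958-142508207 on the minus strand and had neither.
Hk2: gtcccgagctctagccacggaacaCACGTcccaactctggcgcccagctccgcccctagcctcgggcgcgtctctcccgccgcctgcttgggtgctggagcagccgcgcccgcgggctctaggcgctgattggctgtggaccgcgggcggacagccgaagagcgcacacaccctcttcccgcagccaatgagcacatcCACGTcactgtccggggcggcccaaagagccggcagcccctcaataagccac
Ldha: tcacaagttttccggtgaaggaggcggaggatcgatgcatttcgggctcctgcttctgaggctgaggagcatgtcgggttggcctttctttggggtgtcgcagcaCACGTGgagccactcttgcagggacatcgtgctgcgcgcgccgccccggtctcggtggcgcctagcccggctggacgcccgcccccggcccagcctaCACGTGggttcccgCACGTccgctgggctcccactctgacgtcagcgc
Ldhb: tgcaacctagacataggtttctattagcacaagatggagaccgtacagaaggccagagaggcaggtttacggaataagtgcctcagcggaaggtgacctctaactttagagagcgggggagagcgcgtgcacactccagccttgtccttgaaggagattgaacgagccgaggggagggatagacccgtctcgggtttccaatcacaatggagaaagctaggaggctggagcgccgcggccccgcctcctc
Of 32817 promoter windows of the same length, 6.02% held CACGTG and 16.6% held ACGTG. The GLI site GACCACCCA, bound by the transcription factors of the SHH pathway, was in none of the windows of the 9 members and in 0.225% of all windows. All 9 members matched the RefSeq table by symbol. Of the members not shown, Aldoa had 1 ACGTG match in each of the overlapping windows chr7:126799179-126799428 and chr7:126799255-126799504. Pkm had 1 in the window chr9:59656977-59657226, and another start of each of these genes had none. No window of Hk1, Gpi1, Eno1 or Eno2 held ACGTG, and CACGTG was in no window of the members not shown. A match describes letters in these windows and not binding.

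Barcodes with at least 500 UMIs numbered 766, 807, 566 and 1083 in tumours 1 to 4, and after removal of called doublets 764, 806, 562 and 1078 cells were used, 3210 in all. They held 523206 to 1245100 UMIs per tumour, and the median barcode of at least 500 UMIs had 749 to 972. Tumours 1 and 2 stood apart from tumours 3 and 4: mitochondrial transcripts were 12.1% and 12.7% of their UMIs against 2.69% and 2.13%, and ribosomal protein transcripts 1.70% and 2.04% against 4.56% and 5.02%. The SmoM2-EYFP feature had 17, 27, 9 and 21 UMIs (22.3, 37.4, 17.2 and 16.9 CPM) in tumours 1 to 4. The Cre feature had 5 UMIs in tumour 1 against 479, 500 and 1998 in the others, although the label of tumour 1 names the driver too. Prkaa1 was highest in the same library, with 16 UMIs (20.96 CPM, exact Poisson 95% interval 11.98 to 34.0) against 4, 3 and 5 UMIs (5.54, 5.73 and 4.02 CPM) in tumours 2 to 4. Prkaa2 had 10, 5, 10 and 13 UMIs (13.1, 6.92, 19.1 and 10.4 CPM). The labels do not say which exons are floxed, so 3′ counts of these genes do not check the deletion. Without tumour 1, 14 of the 16 calls of members reported below were kept, and the exceptions are named with their genes. Of the 6733 barcode sequences, 1 occurred in more than 1 library.

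States were assigned cell by cell from UMIs of marker genes, none of them glycolytic, after each cell was thinned to 500 UMIs. G2/M cells had at least 8 UMIs of mitotic genes such as Top2a and Cenpf, S-phase cells at least 5 of replication genes such as Mcm2 and Pcna, neuronal cells at least 12 of neuronal genes with at most 3 of each cycling list, and non-dividing cells at most 3 of each cycling list and at most 8 neuronal UMIs with at least 2 of progenitor or granule-lineage genes. These cut-offs were set after the data were examined. G2/M held 214, 248, 135 and 304 cells in tumours 1 to 4, S phase 89, 93, 102 and 202, the non-dividing state 75, 69, 103 and 178, and the neuronal state 201, 136, 140 and 200. The 4 states took in 2489 cells (77.5%), while 591 intermediate cells and 130 cells with microglial, endothelial, mural, oligodendrocyte, astrocyte or erythroid markers were kept apart. The mean number of granule-lineage marker UMIs per cell was 3.67 to 7.53 in every state and tumour. That of progenitor markers was 1.84 to 2.64 in G2/M, 2.54 to 3.09 in S phase, 2.46 to 2.72 in non-dividing and 0.81 to 1.21 in neuronal cells. The first 3 are called progenitor states below, though granule-lineage markers alone could place a cell in the non-dividing state.

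Levels are given in CPM, a gene's UMIs per 1000000 UMIs of the same cells. Since 1 UMI stands for 1 captured 3′ end, they need no correction for transcript length, but capture can differ between genes. By the mean over tumours of all cells, Eno1 (235 ± 187, SD, n = 4) and Pkm had the highest levels of the 9, within each other's spread and that of Aldoa (168 ± 118, SD, n = 4), and Hk1 and Eno2 had the lowest. The order differed between tumours: in tumour 1 Eno1 lay below Hk2, Ldhb and Ldha, and in tumour 3 Aldoa lay above Pkm (229 CPM). Eno1 had 49.8, 99.7, 411 and 381 CPM in tumours 1 to 4, and Aldoa had 48.5, 87.2, 250.4 and 286. Both were several-fold lower in tumours 1 and 2, the libraries with more mitochondrial and fewer ribosomal protein transcripts, than in tumours 3 and 4. Ldha, at 61.6, 80.3, 130.0 and 131 CPM, and Ldhb, at 62.9, 90.0, 140 and 177, had the same order of libraries with smaller gaps.

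Hk2 did not follow that order. It had 81.2, 72.0, 55.4 and 77.9 CPM, from 62, 52, 29 and 97 UMIs, and the mean over tumours was 71.6 ± 11.5 (SD, n = 4). Gpi1 was at 56.8 ± 12.9 CPM (SD, n = 4), and Pkm at 223 ± 91.1 (SD, n = 4). Hk1 had 17.0, 8.31, 22.9 and 8.83 CPM, from 6 to 13 UMIs per tumour. Its mean over tumours was 14.3 CPM, and 7.08 in cells of 1000 or more UMIs. Eno2 had 6 UMIs in tumour 1, 4 in tumour 3 and 0 in tumours 2 and 4. The mean levels of Ldha (101 ± 35.2, SD, n = 4) and Ldhb (117 ± 51.1, SD, n = 4) lay within each other's spread. The part of RNA quality in the gap between the 2 pairs of libraries was not tested.

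**Figure D1:**
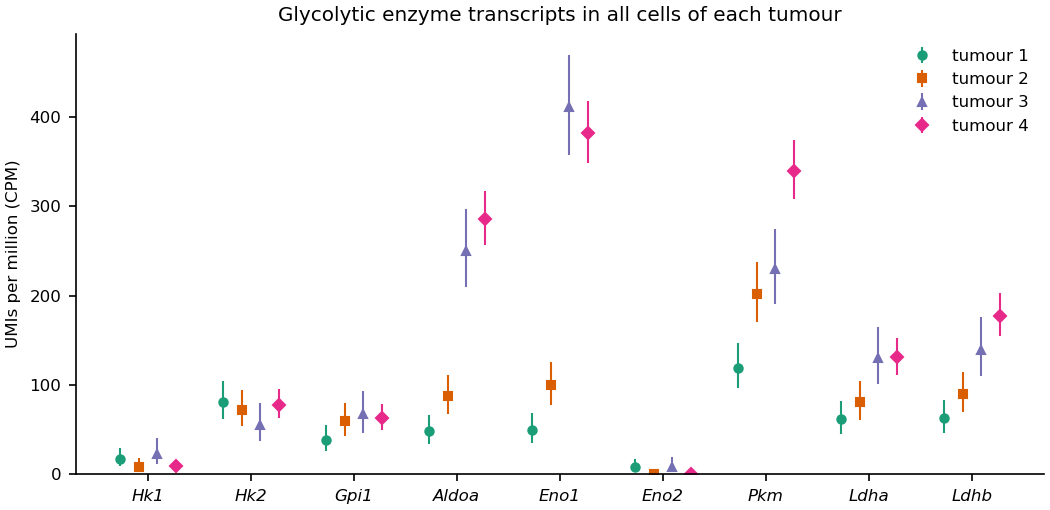
Level of each of the 9 enzymes in all used cells of each tumour, in CPM (vertical axis, linear), with exact Poisson 95% intervals. Aldoa and Eno1 separate tumours 1 and 2 from tumours 3 and 4, while Hk2 lies between 55.4 and 81.2 CPM in all 4.

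Summed UMIs of each tumour and state were compared with edgeR's quasi-likelihood test, with the tumour as a block and Benjamini-Hochberg adjustment over the 7262 genes that had at least 50 UMIs over the 16 sums. Of the members 7 were tested, and Hk1 (29 UMIs) and Eno2 (8 UMIs) fell under that minimum. Each of the 7 had at least 97 UMIs outside its highest state. In G2/M against neuronal cells, 3 of the 7 were higher (Hk2, Pkm, Eno1), 3 lower (Aldoa, Ldhb, Gpi1) and Ldha was not called, where 29.2% of the 7064 genes outside the state markers were called, 15.5% higher and 13.7% lower. In S-phase against neuronal cells, 4 were higher (Hk2, Eno1, Pkm, Ldha) and 1 lower (Ldhb), beside 26.4% of all genes, 14.2% higher and 12.2% lower. In non-dividing against neuronal cells, 3 were higher (Hk2, Eno1, Pkm) and 1 lower (Ldhb), beside 13.1% of all genes, 6.43% higher and 6.68% lower. In G2/M against non-dividing cells, the single call was Aldoa, lower in G2/M, beside 5.22% of all genes, 3.99% higher and 1.23% lower.

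The enzymes did not move together between states: Hk2, Eno1 and Pkm were higher in all 3 progenitor states than in neuronal cells, and Ldhb was lower in all 3. The median log2 fold change of the 7 tested members was 0.18, 0.81, 0.43 and -0.25 in the 4 comparisons, in the order given, and that of all genes 0.03, 0.03, 0.02 and -0.003. With 7 genes tested these counts are a description, and the comparisons with neuronal cells share the neuronal sums. Of the 16 member calls, 2 passed without the tumour block and 2 of 15 tested with tumours 1 and 2 alone, while 15 of 16 passed with tumours 3 and 4 alone. Each of the 16 kept its direction wherever it was tested. Beside each gene below stands in how many of 17 other settings (scalings, filters, cell and marker cut-offs, no tumour block, tumours left out) its call was kept. The neuronal sums also differed in depth and RNA content: the median cell had 690 to 789 UMIs, against 819 to 1266 in G2/M, and ribosomal protein transcripts were 1.37% to 2.69% of UMIs, against 1.59% to 4.96%. Summed markers of other cell types differed too. The 18 oligodendrocyte markers had 423 to 565 CPM in G2/M against 556 to 810 in neuronal cells, lower in G2/M in 4 of 4 tumours. The 6 erythroid and choroid plexus markers (60.4 to 384 against 83.3 to 413) were also lower in 4 of 4, and the 15 astrocyte markers (396 to 940 against 394 to 773) were higher in 4 of 4. In 3 of 4 tumours the 15 endothelial markers (38.1 to 94.0 against 22.2 to 62.9) and the 14 mural and fibroblast markers (168 to 207 against 94.5 to 179) were higher in G2/M, and in 2 of 4 the 16 microglial markers (26.9 to 181 against 18.8 to 144). S-phase and non-dividing cells differed from neuronal cells in other ways. Their median cells had 797 to 1047 and 657 to 865 UMIs, the second range overlapping the neuronal one, and ribosomal protein transcripts were 1.96% to 5.94% and 1.93% to 6.47% of UMIs. The median mitochondrial share per cell, 1.85% to 10.03% in neuronal cells, was higher in non-dividing cells in 4 of 4 tumours (1.86% to 14.5%), in S phase in 3 of 4 (1.73% to 11.9%) and in G2/M in 2 of 4 (1.68% to 11.1%). Microglial, mural and fibroblast, and astrocyte markers were higher than in neuronal cells in 4 of 4 tumours in both states, endothelial markers in 3 of 4, and erythroid and choroid plexus markers in 2 of 4. Oligodendrocyte markers were lower in 4 of 4 tumours in S phase and in 3 of 4 in non-dividing cells. The part of these features in the results was not tested.

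**Figure D2:**
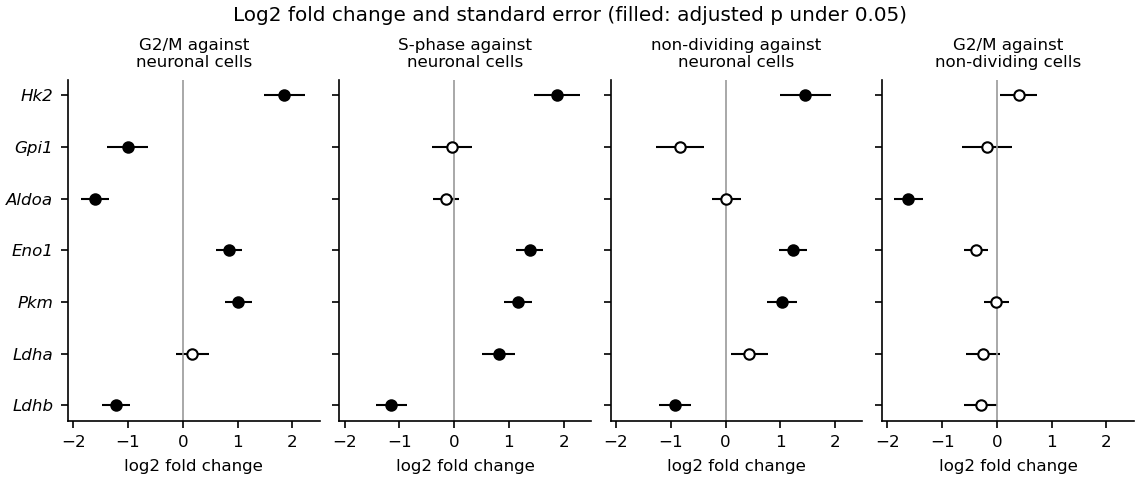
Log2 fold change (horizontal axis) and standard error of the 7 tested enzymes in 4 comparisons of summed counts, 4 tumours each, from edgeR; filled points have an adjusted p under 0.05. Hk2, Eno1 and Pkm lie to the right of 0 and Ldhb to the left in each of the 3 comparisons with neuronal cells, and Aldoa alone is filled in G2/M against non-dividing cells.

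At the entry step, Hk2 was lowest in neuronal cells in every tumour. G2/M cells had 131, 112, 53.7 and 101 CPM of Hk2 in tumours 1 to 4, and S-phase cells 158, 71.0, 96.1 and 98.9. Non-dividing cells had 73.7, 73.3, 82.9 and 75.8 CPM. Neuronal cells had 17.4, 62.9, 28.2 and 16.7, from 3, 7, 3 and 3 UMIs. Tumour 2 was the highest of the neuronal values and overlapped the G2/M value of tumour 3, but within each tumour the neuronal value was the lowest of the 4 states.

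The log2 fold change of Hk2 over neuronal cells was 1.86 ± 0.37 (SE, adjusted p = 1.94e-05, edgeR) in G2/M, higher in 4 of 4 tumours. It was 1.87 ± 0.41 in S phase (adjusted p = 0.000141, edgeR, 4 of 4 tumours) and 1.45 ± 0.47 in non-dividing cells (adjusted p = 0.0213, edgeR, 4 of 4 tumours). G2/M and non-dividing cells differed by 0.40 ± 0.34, which did not pass (adjusted p = 0.619, edgeR) and does not show that the states were alike. The G2/M and S-phase calls were kept on leaving out any 1 tumour, at 1.45 to 2.32 and 1.42 to 2.45. In cells with a mitochondrial share of at most 10% the values were larger, at 2.61, 2.69 and 2.06 in G2/M, S-phase and non-dividing cells, and with tumours 1 and 2 alone the S-phase value was 1.61 (adjusted p = 0.0699, edgeR). The non-dividing call was lost without tumour 1 (1.17, adjusted p = 0.141), tumour 3 (1.41, adjusted p = 0.0785) or tumour 4 (1.25, adjusted p = 0.201), all from edgeR. Of the 17 settings, the G2/M call was kept in 17, the S-phase call in 16 and the non-dividing call in 8. The last was also lost with DESeq2 (adjusted p = 0.0508) and, in edgeR, with no filter on low counts (adjusted p = 0.0523), no block (0.183), stricter markers (0.0661), tumours 1 and 2 alone (0.494) or cells of 1000 or more UMIs (0.98, adjusted p = 0.635).

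The neuronal state was also divided by marker UMIs, as a description. The 296 cells with 12 to 17 marker UMIs held 11 Hk2 UMIs over the 4 tumours, 44.2 CPM (exact Poisson 95% interval 22.1 to 79.0), and the 381 cells with 18 or more held 5, 15.5 CPM (5.05 to 36.3). Those intervals overlap. Hk1 was at 32.1 and 37.3 CPM in the same groups of cells, and Ldhb at 201 and 189.6. Ldha was at 100.4 CPM (65.0 to 148) and 62.2 CPM (38.0 to 96.0), again with overlapping intervals.

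Hk1, the constitutive brain hexokinase, had few UMIs in any state. Neuronal cells held 5, 1, 8 and 6 Hk1 UMIs in tumours 1 to 4, which is 28.9, 8.99, 75.1 and 33.3 CPM. G2/M cells held 1, 1, 0 and 1, S-phase cells 2, 1, 0 and 0, and non-dividing cells 0, 0, 3 and 0. The neuronal value was the highest of the 4 states in tumours 1, 3 and 4, and in tumour 2 the S-phase value, from 1 UMI, was higher.

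The balance of the 2 hexokinases was compared as a ratio. In neuronal cells the Hk2/Hk1 ratio of UMIs was 0.60 in tumour 1 (exact 95% interval 0.093 to 3.08), 7.0 in tumour 2 (0.899 to 315), 0.375 in tumour 3 (0.064 to 1.56) and 0.50 in tumour 4 (0.081 to 2.34). In G2/M cells it was 32.0 (5.35 to 1303), 26.0 (4.27 to 1066) and 45.0 (7.68 to 1816) in tumours 1, 2 and 4, and tumour 3 had 8 UMIs of Hk2 and 0 of Hk1, which allows a Hk1 share of up to 37.5% (3 counts of the total, the limit given for every count of 0, while the plotted intervals of shares are exact two-sided ones). The 3 tumours with a G2/M ratio lay above the neuronal ratio of the same tumour. In S phase it was 6.50 (1.47 to 59.3) and 6.0 (0.728 to 276) in tumours 1 and 2, and 0 of 10 and 0 of 23 UMIs were Hk1 in tumours 3 and 4, which allows up to 30.0% and 13.0%. In non-dividing cells 0 of 5, 0 of 4 and 0 of 13 UMIs were Hk1 in tumours 1, 2 and 4, allowing up to 60.0%, 75.0% and 23.1%, and tumour 3 had a ratio of 2.33 (0.533 to 14.0). Intervals and limits cover counting error only.

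As a share of the pair, Hk2 made up 97.8% ± 1.61 of hexokinase UMIs in G2/M cells (SD, n = 4), 93.1% ± 7.98 in S phase, 92.5% ± 15.0 in non-dividing cells and 46.4% ± 27.7 in neuronal cells. Neuronal shares were 37.5%, 87.5%, 27.3% and 33.3% in tumours 1 to 4, so that tumour 2 stood with the progenitor states and the other 3 below them. The states differed by an exact permutation test of the labels within tumours (p = 0.0289, adjusted over the 3 pairs 0.0434). Its statistic was the variance of the 4 state means, so it has no direction and does not set progenitor against neuronal cells. In 3 of 4 tumours all 3 progenitor states were above the neuronal state. The permutation call was lost on leaving out any 1 tumour, with adjusted p of 0.188, 0.0938, 0.177 and 0.172 without tumours 1 to 4 (exact permutation). Summed over tumours, the Hk2/Hk1 ratio was 37.0 (12.3 to 182) in G2/M, 17.3 (5.61 to 86.8) in S phase, 9.67 (3.0 to 49.6) in non-dividing and 0.80 (0.388 to 1.63) in neuronal cells. These intervals pool the UMIs of all tumours as 1 sample and leave out the differences between tumours.

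Gpi1, the isomerase after hexokinase, was called in 1 comparison. It was at 16.4, 34.5, 47.0 and 47.1 CPM in G2/M cells of tumours 1 to 4 and in neuronal cells at 63.6, 53.9, 93.9 and 83.3, so the groups did not overlap. The log2 fold change was -1.01 ± 0.37 (SE, adjusted p = 0.0268, edgeR), lower in G2/M in 4 of 4 tumours. S-phase values, at 36.4, 71.0, 115 and 81.7 CPM, spread around the neuronal ones, with a log2 fold change of -0.05 ± 0.37 (adjusted p = 0.945, edgeR). Non-dividing cells had 0, 36.7, 47.4 and 70.0 CPM, below neuronal cells in 4 of 4 tumours but not called (-0.83 ± 0.44, adjusted p = 0.236, edgeR). G2/M and non-dividing cells differed by -0.18 ± 0.46 (adjusted p = 0.9045, edgeR), so a low Gpi1 was not shown to be particular to G2/M. The G2/M call was lost without tumour 1 (-0.84, adjusted p = 0.103), tumour 3 (-1.07, 0.0533) or tumour 4 (-1.16, 0.0708), all adjusted p from edgeR. It was kept in 5 of 16 settings that tested it, and also lost with DESeq2 (adjusted p = 0.0557) and, in edgeR, with no filter on low counts (adjusted p = 0.0863), no block (0.224), tumours 3 and 4 alone (0.114), a mitochondrial share of at most 10% (0.0888), a second thinning (0.11), stricter markers (-0.71, 0.337) or cells of 1000 or more UMIs (-0.45, 0.674).

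Aldoa, the aldolase of muscle and most other tissues, was lower in G2/M than in non-dividing or neuronal cells. G2/M cells had 16.4, 43.1, 101 and 112 CPM in tumours 1 to 4. Non-dividing cells had 59.0, 55.0, 320 and 426 CPM, and neuronal cells 75.2, 71.9, 366 and 344. Because tumours 1 and 2 were low in every state the groups overlap across tumours, but in each tumour the G2/M value was below both the non-dividing and the neuronal value. The log2 fold change of G2/M was -1.61 ± 0.26 against neuronal cells (SE, adjusted p = 7.13e-08, edgeR, 4 of 4 tumours) and -1.62 ± 0.27 against non-dividing cells (adjusted p = 6.94e-07, edgeR, 4 of 4 tumours).

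S-phase cells had 12.1, 106, 307 and 348 CPM of Aldoa, low in tumour 1 from 1 UMI, and did not differ from neuronal cells by the test (-0.15 ± 0.24, adjusted p = 0.693, edgeR). Without tumour 4 the G2/M value was -1.61 against neuronal cells (adjusted p = 0.000603) and -1.33 against non-dividing cells (adjusted p = 0.0544), the second no longer a call, both from edgeR. The calls were kept in 15 and 14 of 17 settings, and both were lost with no block (adjusted p = 0.207 and 0.572, edgeR) and with tumours 1 and 2 alone (-1.43 and -1.10, adjusted p = 0.0824 and 0.595, edgeR). The annotation (GENCODE release 21 for mouse) has 2 adjoining entries named Aldoa on chromosome 7, at 126795234 to 126800751 and 126800790 to 126809108, and processed copies of Aldoa, Eno1 and Ldha exist. How the counting treated reads shared with them is not given in the sources used here, so these 3 levels carry that uncertainty.

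Enolase transcripts were nearly all Eno1. Eno1 was at 49.1, 81.9, 403 and 318 CPM in G2/M cells, in S-phase cells at 84.8, 154, 547 and 473, and in non-dividing cells at 73.7, 18.3, 509 and 507. Neuronal cells had 28.9, 71.9, 216 and 167. The neuronal value was the lowest state of its tumour in tumours 1, 3 and 4, and in tumour 2 the non-dividing value, from 1 UMI, was lower. Over neuronal cells, the log2 fold change was 0.85 ± 0.24 in G2/M (SE, adjusted p = 0.00326, edgeR, 4 of 4 tumours), 1.38 ± 0.25 in S phase (adjusted p = 1.78e-06, edgeR, 4 of 4 tumours) and 1.23 ± 0.26 in non-dividing cells (adjusted p = 0.000116, edgeR, 3 of 4 tumours).

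The S-phase call of Eno1 was kept on leaving out any 1 tumour. The G2/M call was lost without tumour 3 (0.76, adjusted p = 0.0555) or tumour 4 (0.72, adjusted p = 0.11), and the non-dividing call without tumour 4 (0.88, adjusted p = 0.151), all from edgeR. The G2/M, S-phase and non-dividing calls were kept in 11, 15 and 14 of 17 settings. All 3 were lost with no block (adjusted p = 0.581, 0.304 and 0.55, edgeR) and with tumours 1 and 2 alone (0.41, 1.23 and 0.14, adjusted p = 0.663, 0.152 and 0.957, edgeR), and the G2/M call also with 1000 or more UMIs (adjusted p = 0.107, edgeR) or stricter markers (0.0634, edgeR). Eno2, the neuron-enriched enolase, had 4 UMIs in neuronal cells of tumour 1, 1 in neuronal, 2 in non-dividing and 1 in G2/M cells of tumour 3, and 0 in every state of tumours 2 and 4. The Eno1/Eno2 ratio in neuronal cells was 1.25 (exact 95% interval 0.269 to 6.30) in tumour 1 and 23.0 (3.74 to 947) in tumour 3, and 0 of 8 and 0 of 30 UMIs were Eno2 in tumours 2 and 4, allowing up to 37.5% and 10%. The Eno1 share was 99.6%, 100%, 98.9% and 87.8% in G2/M, S-phase, non-dividing and neuronal cells (means of 4 tumours). Because most of these shares are tied at 100%, the exact permutation test cannot give a p under 0.25, so it tests nothing here.

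Pkm makes pyruvate, and its 3′ counts do not separate the M1 and M2 splice forms. G2/M cells had 135, 216, 221 and 338 CPM of Pkm, S-phase cells 121, 201, 183 and 494, and non-dividing cells 177, 91.7, 308 and 350.0. Neuronal cells had 81.0, 153, 150.2 and 94.5 CPM. Neuronal cells were the lowest state in tumours 1, 3 and 4, and the gap was widest in tumour 4. The log2 fold change over neuronal cells was 1.02 ± 0.24 in G2/M (SE, adjusted p = 0.000311, edgeR, 4 of 4 tumours), 1.17 ± 0.26 in S phase (adjusted p = 0.000128, edgeR, 4 of 4 tumours) and 1.03 ± 0.28 in non-dividing cells (adjusted p = 0.00365, edgeR, 3 of 4 tumours). All 3 calls rested on tumour 4: without it the values were 0.60 (adjusted p = 0.135), 0.37 (0.495) and 0.67 (0.273), all adjusted p from edgeR. They were kept in 14, 14 and 13 of 17 settings. With tumours 1 and 2 alone the values were 0.59, 0.44 and 0.39 (adjusted p = 0.266, 0.583 and 0.762, edgeR), with no block the adjusted p were 0.184, 0.138 and 0.331 (edgeR), and the non-dividing call was also lost with DESeq2 (adjusted p = 0.0607).

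**Figure D3:**
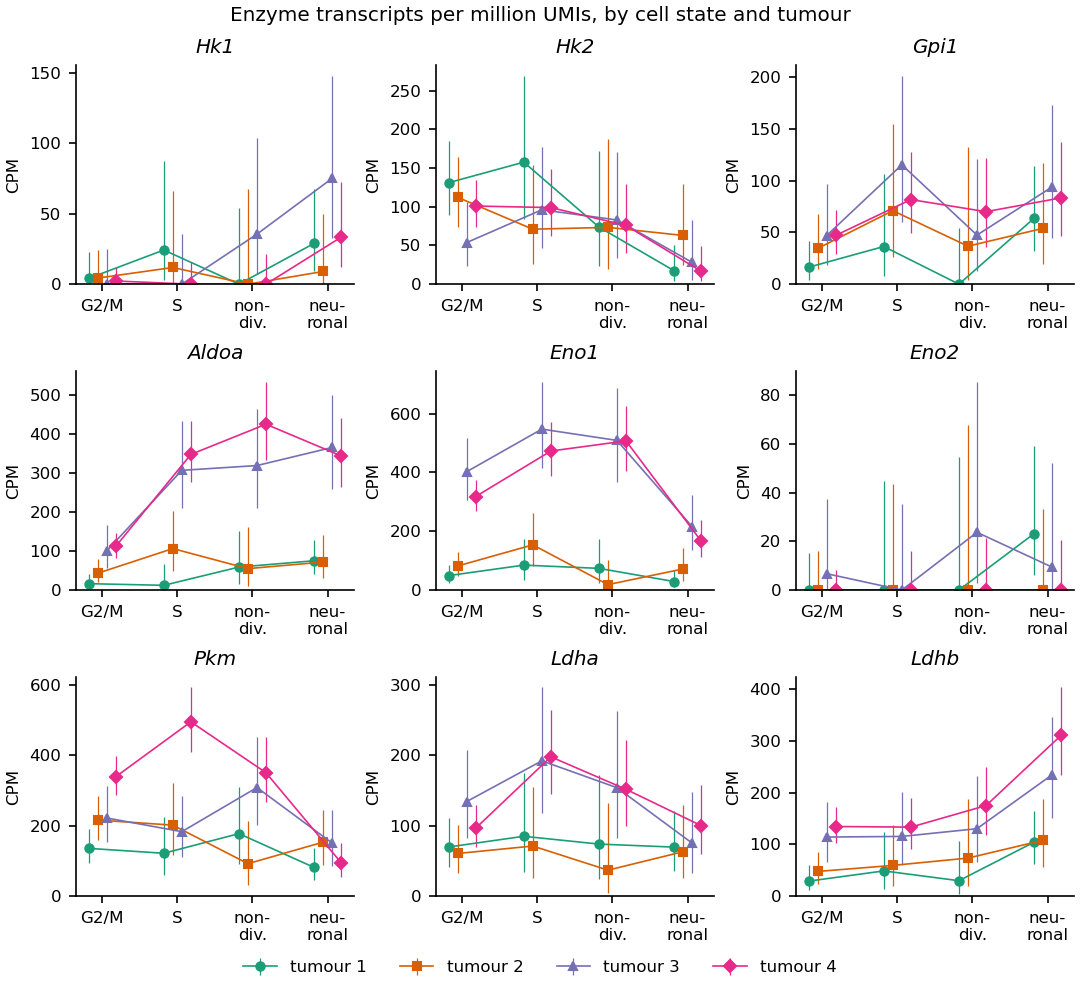
Level of each enzyme in CPM (vertical axes, linear, a scale per gene) in the 4 cell states of each tumour, with exact Poisson 95% intervals; thin lines join the states of 1 tumour and imply no time course. Hk2 is lowest and Ldhb highest in the neuronal state of every tumour, and Aldoa is lower in G2/M than in non-dividing and neuronal cells of every tumour.

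At the lactate step the 2 subunits differed. Among the 4 states, Ldhb was highest in neuronal cells in every tumour, at 104, 108, 235 and 311 CPM. In G2/M cells it was at 28.7, 47.4, 114 and 134 CPM, in S-phase cells at 48.5, 59.1, 115 and 133, and in non-dividing cells at 29.5, 73.3, 130.2 and 175. Across tumours the ranges overlap, since tumours 1 and 2 were lower in every state. The log2 fold change of Ldhb was -1.22 ± 0.25 in G2/M (SE, adjusted p = 2.54e-05, edgeR), -1.14 ± 0.28 in S phase (adjusted p = 0.000662, edgeR) and -0.92 ± 0.29 in non-dividing cells (adjusted p = 0.0167, edgeR), each lower than neuronal cells in 4 of 4 tumours. The calls in G2/M and S phase were kept on leaving out any 1 tumour, and the non-dividing call was lost without tumour 3 (-0.95, adjusted p = 0.0614) or tumour 4 (-0.99, adjusted p = 0.144), both from edgeR. The 3 calls were kept in 16, 13 and 9 of 17 settings, and none passed with no block (adjusted p = 0.148, 0.241 and 0.552, edgeR). In S phase the call was also lost with tumours 1 and 2 alone (adjusted p = 0.237), 1000 or more UMIs (-0.63, 0.319) or stricter markers (-0.75, 0.111), all edgeR. In non-dividing cells it was also lost with DESeq2 (adjusted p = 0.0508) and, in edgeR, with tumours 1 and 2 alone (adjusted p = 0.452), 1000 or more UMIs (0.0867), stricter markers (0.136) or a second thinning (-0.68, 0.0957).

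Ldha was called against neuronal cells in S phase alone. G2/M cells had 69.6, 60.4, 134 and 96.4 CPM of Ldha, S-phase cells 84.8, 71.0, 192 and 198, and non-dividing cells 73.7, 36.7, 154 and 152. Neuronal cells had 69.4, 62.9, 75.1 and 100.01. All 4 tumours had more Ldha in S-phase than in neuronal cells, by a log2 fold change of 0.81 ± 0.31 (SE, adjusted p = 0.0338, edgeR). That call was lost without tumour 3 (0.61, adjusted p = 0.228) or tumour 4 (0.66, adjusted p = 0.284), both from edgeR. The value was 1.48 with stricter markers of the states and 0.19 (adjusted p = 0.874, edgeR) with tumours 1 and 2 alone. The call was kept in 10 of 17 settings, and also lost with DESeq2 (adjusted p = 0.0929) and, in edgeR, with no filter on low counts (adjusted p = 0.0595), no block (0.254) or 1000 or more UMIs (0.259). G2/M and neuronal cells differed by 0.18 ± 0.30 (adjusted p = 0.709, edgeR), with 2 of 4 tumours in that direction, and non-dividing and neuronal cells by 0.43 ± 0.34 (adjusted p = 0.471, edgeR).

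The Ldha/Ldhb ratio was below 1 in neuronal cells of every tumour: 0.667 in tumour 1 (exact 95% interval 0.293 to 1.46), 0.583 in tumour 2 (0.195 to 1.61), 0.32 in tumour 3 (0.125 to 0.732) and 0.321 in tumour 4 (0.178 to 0.555). In S phase it was above 1 in every tumour, at 1.75 (0.445 to 8.15), 1.20 (0.305 to 4.97), 1.67 (0.776 to 3.74) and 1.48 (0.921 to 2.42). The S-phase and neuronal ratios do not overlap between tumours, but the intervals of single tumours are wide, and in tumours 1 and 2 those of the 2 states overlap. In G2/M it was 2.43 (0.957 to 6.93), 1.27 (0.537 to 3.1), 1.18 (0.585 to 2.39) and 0.717 (0.473 to 1.08), above 1 in 3 tumours and below 1 in tumour 4. Non-dividing cells had 2.5 (0.409 to 26.3), 0.50 (0.045 to 3.49), 1.18 (0.489 to 2.91) and 0.867 (0.492 to 1.52), with tumour 2 below its neuronal ratio from 6 UMIs of the pair.

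Ldha made up 55.7% ± 11.9 of the pair's UMIs in G2/M cells (SD, n = 4), 60.1% ± 4.05 in S phase, 51.3% ± 15.9 in non-dividing cells and 31.4% ± 8.26 in neuronal cells. The states differed by the same exact permutation test within tumours (p = 0.0225, adjusted over the 3 pairs 0.0434), with all 3 progenitor states above the neuronal state in 3 of 4 tumours. As for the hexokinases, the call was lost on leaving out any 1 tumour, with adjusted p of 0.146, 0.0885, 0.177 and 0.172 without tumours 1 to 4 (exact permutation). Summed over tumours the ratio was 0.989 (0.736 to 1.33) in G2/M, 1.52 (1.06 to 2.20) in S phase, 0.979 (0.637 to 1.5) in non-dividing and 0.405 (0.28 to 0.578) in neuronal cells. These intervals too pool the UMIs of all tumours and leave out the differences between tumours. The summed S-phase interval excludes 1, while the S-phase interval of each single tumour includes 1. By the fits above, the shift between S-phase and neuronal cells came with both a lower Ldhb and a higher Ldha, and in G2/M the call was of Ldhb alone.

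**Figure D4:**
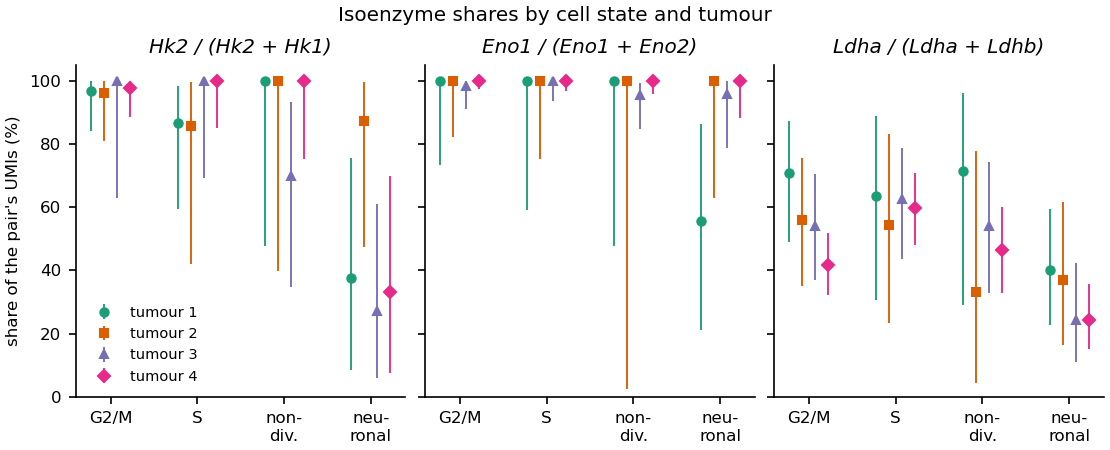
Share of each isoenzyme pair's UMIs (vertical axis, percent) that belonged to Hk2, Eno1 or Ldha in the 4 states of each tumour, with exact Clopper-Pearson 95% intervals. Neuronal Hk2 shares of tumours 1, 3 and 4 lie between 27.3% and 37.5% and that of tumour 2 at 87.5%, and neuronal Ldha shares between 24.2% and 40.0%.

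Cells of other types were few, and their levels are sums over tumours given as a description. The 40 astrocyte-marker cells held 5 UMIs of Hk2 and 4 of Hk1, and 3 of Ldha against 15 of Ldhb. The 38 oligodendrocyte-marker cells held 1 UMI each of Hk2 and Hk1, and 7 of Ldha against 8 of Ldhb. The 16 endothelial-marker cells had 5 of Ldha and 2 of Ldhb, and the 23 microglia-marker cells had 6 and 11. With so few UMIs the ratios of these cells could not be ordered.

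The remaining genes of the pathway were taken from lists of other glycolytic genes, pyruvate entry into mitochondria, branches from glycolysis, and regulators. Of 17 other glycolytic genes in the tables, among them glucose transporters, phosphofructokinases and Gapdh, 3 reached the minimum for testing (Tpi1, Pgk1 and Slc16a1). Pgk1 reached it only through the state in which it was highest. Slc16a1, the lactate transporter MCT1, had 27 UMIs in G2/M, 16 in S-phase, 7 in non-dividing and 2 in neuronal cells over the 4 tumours. With 52 in all against the minimum of 50, it was tested only because of the states in which it was high, so its difference is a description. Of the 7 tested genes for pyruvate entry (Mpc1, Mpc2, Pdha1, Pdhb, Pdhx, Dlat and Dld), Pdhx reached the minimum only through its highest state. Of the other 6, 0 were called in any of the 4 comparisons, beside 29.2%, 26.4%, 13.1% and 5.22% of all genes.

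Of the 12 tested branch genes, Psph, Pgd and Gys1 reached the minimum only through the state in which each was highest. Of the other 9, 5 were higher and 0 lower in G2/M than in neuronal cells, 4 and 0 in S phase, 3 and 0 in non-dividing cells, and 1 and 0 in G2/M against non-dividing cells. Of all genes, 15.5%, 14.2%, 6.43% and 3.99% were higher in these comparisons and 13.7%, 12.2%, 6.68% and 1.23% lower. The median log2 fold change of these 9 was 0.74, 0.72, 0.82 and 0.11 in that order, and over all 12 branch genes it was 0.32, 0.47, 0.52 and 0.09. That of all genes was 0.03, 0.03, 0.02 and -0.003. Phgdh, Psat1, Shmt1 and Shmt2 act in serine and glycine synthesis, which leaves glycolysis at phosphoglycerate. Phgdh, the committing enzyme of that branch, had 53.2, 86.2, 107 and 121 CPM in G2/M cells of tumours 1 to 4, and in neuronal cells 3 UMIs in tumour 2 and 0 in the others. Its log2 fold change in G2/M was 3.94 ± 0.58 over neuronal cells (adjusted p = 4.11e-09, edgeR, 4 of 4 tumours) and 1.40 ± 0.43 over non-dividing cells (adjusted p = 0.0251, edgeR, 4 of 4 tumours). It was also called over neuronal cells in S phase (3.29 ± 0.68, adjusted p = 4.1e-05, edgeR) and in non-dividing cells (2.55 ± 0.80, adjusted p = 0.0166, edgeR). The call against non-dividing cells was lost without tumour 2 (1.33, adjusted p = 0.0582), tumour 3 (1.07, 0.243) or tumour 4 (1.71, 0.174), and without tumour 4 the S-phase value was 2.25 (adjusted p = 0.0619) and the non-dividing value 1.46 (adjusted p = 0.493), all from edgeR. Without tumour 1 the non-dividing value was 2.08 (adjusted p = 0.104, edgeR). The G2/M call over neuronal cells was kept in all 16 settings that tested it, at 3.17 without tumour 4, 3.27 with 1000 or more UMIs 4.87 at a mitochondrial share of at most 10% and 6.51 with stricter markers. Under the last 3 of these settings the S-phase value was 2.66, 4.42 and 5.74, and the non-dividing value was 3.52 and 4.78 under the last 2. The S-phase, non-dividing and G2/M against non-dividing calls were kept in 15, 11 and 9 of 16; the last 2 were also lost with DESeq2 (adjusted p = 0.0689 and 0.19), no block (0.171 and 0.567, edgeR) or 1000 or more UMIs (0.144 and 0.584, edgeR), and the last also at a mitochondrial share of at most 10% (0.0776, edgeR). Without tumour 2 the neuronal sums hold 0 UMIs of Phgdh and a fitted fold against them has no meaning as a size.

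The mitochondrial and cytosolic serine hydroxymethyltransferases Shmt2 and Shmt1 were higher in G2/M than in neuronal cells by 1.91 ± 0.38 (adjusted p = 1.17e-05, edgeR) and 2.62 ± 0.57 (adjusted p = 7.79e-05, edgeR), in 4 of 4 tumours each. Shmt1 had 51 UMIs outside G2/M, 35 of them in S phase, so it too passed the minimum narrowly. In S phase the values of Shmt2 and Shmt1 were 1.96 ± 0.41 (adjusted p = 5e-05, edgeR) and 2.75 ± 0.61 (adjusted p = 0.000139, edgeR). Both genes kept their calls in G2/M and S phase in every setting that tested them, except Shmt2 in S phase with tumours 1 and 2 alone (1.97, adjusted p = 0.0529, edgeR). At 1000 or more UMIs the S-phase values were 2.92 for Shmt2 and 3.71 for Shmt1, and the G2/M value of Shmt1 was 3.26, against 2.02 with stricter markers. Psat1, the second enzyme of serine synthesis, was called in G2/M alone (1.17 ± 0.31, adjusted p = 0.00138, edgeR, 3 of 4 tumours), and not without tumour 4 (0.77, adjusted p = 0.16, edgeR). It was kept in 13 of 17 settings, being also lost with no block (adjusted p = 0.102, edgeR), 1000 or more UMIs (0.103, edgeR) or tumours 1 and 2 alone (0.18, adjusted p = 0.849, edgeR), against 1.88 with tumours 3 and 4 alone. Tkt, the transketolase of the pentose phosphate branch, was called over neuronal cells in all 3 progenitor states, at 0.74 ± 0.30, 1.01 ± 0.33 and 1.10 ± 0.34 (adjusted p = 0.0499, 0.0123 and 0.0155, edgeR), and Pgls in non-dividing cells (0.82 ± 0.30, adjusted p = 0.0464, edgeR). Without tumour 4 the Tkt values were 0.46, 0.83 and 1.21 (adjusted p = 0.424, 0.165 and 0.058, edgeR), without tumour 3 0.61, 0.76 and 1.08 (adjusted p = 0.18, 0.134 and 0.0538, edgeR), and without tumour 1 the G2/M and non-dividing values were 0.78 and 0.96 (adjusted p = 0.0944 and 0.108, edgeR), so that these calls were lost. The 3 Tkt calls were kept in 4, 12 and 8 of 17 settings and the Pgls call in 4 of 17. At 1000 or more UMIs the values were 0.38, 0.68 and 0.55 for Tkt and 0.091 for Pgls (adjusted p = 0.609, 0.34, 0.67 and 0.963, edgeR), with tumours 1 and 2 alone 0.20 and 0.33 for Tkt in G2/M and S phase (0.805 and 0.746, edgeR), and after a second thinning 0.24 for Pgls (0.687, edgeR). The Pgls call was lost without tumours 2, 3 or 4 (0.70, 0.63 and 1.05, adjusted p = 0.132, 0.243 and 0.144, edgeR).

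Of 6 regulators over the minimum, Bnip3, Myc and Egln1 reached it only through the state in which each was highest, so their values are a description. Of the other 3 (Mycn, Ddit4 and Hif1a), 1 was higher and 1 lower in G2/M than in neuronal cells, 1 and 1 in S phase, 1 and 0 in non-dividing cells, and 0 and 1 in G2/M against non-dividing cells, beside 29.2%, 26.4%, 13.1% and 5.22% of all genes called in either direction. Their median log2 fold change was -0.084, 0.21, 0.38 and -0.43. Mycn, the MYC-family factor of SHH-driven granule progenitors, had 258, 319, 396 and 397 CPM in G2/M cells, 177, 293, 462 and 607 in non-dividing cells and 52.1, 126, 122 and 233 in neuronal cells, so neuronal cells were lowest in every tumour. Its log2 fold change over neuronal cells was 1.39 ± 0.21 in G2/M (adjusted p = 9.36e-09, edgeR), 1.40 ± 0.22 in S phase (adjusted p = 1.03e-07, edgeR) and 1.53 ± 0.23 in non-dividing cells (adjusted p = 3.7e-08, edgeR), and these calls were kept in 17, 17 and 15 of 17 settings. The non-dividing call was lost with no block (adjusted p = 0.0534, edgeR) or 1000 or more UMIs (0.93, adjusted p = 0.095, edgeR). Myc had 30 UMIs in G2/M, 14 in S-phase, 32 in non-dividing and 5 in neuronal cells over the 4 tumours.

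Ddit4, which hypoxia and other stresses are known to induce, was lower in G2/M than in neuronal cells, with a log2 fold change of -1.66 ± 0.34 (adjusted p = 2.45e-05, edgeR), in 3 of 4 tumours. It was also lower in G2/M than in non-dividing cells (-2.04 ± 0.35, adjusted p = 1.82e-06, edgeR, 4 of 4 tumours). Both calls were kept in 16 of 17 settings. With tumours 1 and 2 alone the values were -0.90 (adjusted p = 0.196, edgeR) and -0.76 (adjusted p = 0.662, edgeR), neither a call, against -2.58 and -3.02 with tumours 3 and 4 alone, and the first was -2.30 without tumour 2. The S-phase value was -1.17 ± 0.37 (adjusted p = 0.0104, edgeR), a call kept in 10 of 17 settings. It was lost without tumour 3 (-1.13, adjusted p = 0.0506) or tumour 4 (-1.15, 0.0946), with no block (0.167), tumours 1 and 2 alone (0.315), 1000 or more UMIs (0.185) or stricter markers (0.157), all edgeR, and with DESeq2 (0.066). Bnip3, another gene that hypoxia induces, had 9 UMIs each in G2/M and S-phase cells, 15 in non-dividing and 28 in neuronal cells. Hif1a was not called in any of the 4 comparisons.

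The genes whose levels most resembled Hk2 over the 16 sums, after centring within tumours, were Ccnd1 (Pearson r = 0.916), Ncl (0.903) and Snrpb (0.895), among 2766 genes with at least 200 UMIs. Ccnd1 encodes the cyclin D1 of SHH-stimulated progenitors and was itself one of the markers that set the states, Ncl encodes nucleolin and Snrpb a core splicing protein. The sums of a tumour share a library, the states were set by marker expression in the same cells, and the best of 2766 values are given, so these r are a description.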

How the data were processed

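The submitters' processing notes, which give no roles, name STAR and the mm10 build. The counting tool, annotation and barcode filter are not given in the sources used here. The deposited values are whole-number UMI counts per gene and cell barcode, 1 table per tumour, with no normalization by the authors, per the file headers and values. Another 6 tables, of 11203 cell columns, could not be tied to a labelled sample and were left out. The members and lists were chosen with earlier results of these data known. The design text speaks of replicate mice and the labels number the tumours, so the tumour is the replicate.

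Barcodes with at least 500 UMIs were kept, and Scrublet in scanpy 1.11.5 (expected share 6%) marked 2, 1, 4 and 5 doublets in tumours 1 to 4, which were removed. Every cell was thinned to 500 UMIs (seed 1) to assign states: 62 G2/M, 58 S-phase, 56 neuronal, 14 progenitor and 12 granule-lineage markers were in the tables, G2/M and S-phase cells had under 12 neuronal UMIs, S-phase cells under 8 G2/M UMIs, and cells with at least 4 UMIs of another cell type's list were set apart. Within 1 UMI of a cut lay 134 cells for G2/M, 272 for S phase and 90 for the neuronal state, and 40 cells over both the G2/M and neuronal cuts were in no state. Unthinned counts were summed per tumour and state and tested by quasi-likelihood in edgeR 4.0.16 under R 4.3.3 (scaled by TMM, tumour as a block, genes with at least 50 UMIs over all sums, adjusted p under 0.05); the 198 state markers tested were left out of counts of called genes. Standard errors follow from the F statistic of that test. Same-tumour sums come from 1 animal, and their deviations from the state means correlated with r of 0.268 to 0.637 (lowest to highest pair). That test was also run on simulated counts for G2/M against neuronal cells (7077 genes), with a fixed spread shared by all genes and not estimated from these sums. It recovered 50% of 2-fold and 100% of 4-fold rises (50 genes each). Of falls that passed the filter, it recovered 37.2% to 0.5 (43 genes) and 83.8% to 0.25 of the level (37 genes), and 5.43% of its calls were false. These rates hold for that spread alone, and a change of 2-fold can be missed. Because marker expression in these cells set the states, adjusted p-values describe their differences and give no evidence that they exist.

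Isoenzyme shares were tested by permuting states within tumours over 13824 arrangements, with scipy 1.17.1. The smallest p these shares allow is 7.23e-05 for Ldha and, because of ties, 0.000289 for Hk2 and 0.25 for Eno1, which could not be tested. Intervals are exact at 95%, Poisson for levels and Clopper-Pearson for shares, and a count of 0 is given a limit of 3 counts. Named genes were the 9 members, called genes of the 4 fixed pathway lists, Prkaa1, Prkaa2, and the 3 genes most like Hk2 and Ldhb in log2 CPM (prior count 2). The genes most like Ldhb are not reported here. Alternatives were other scalings, DESeq2 1.42.0, other filters, no block, each tumour left out, pairs of tumours, other cell filters, doublets kept, stricter markers (12 G2/M, 7 S-phase or 16 neuronal UMIs), nuclear UMIs as denominator and, chosen after seeing the data, a second thinning.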

Additional observations from a re-analysis of the deposited data

Results flagged for a closer look

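Of 56 groups of 4 tumours tested for a value far from the other 3 (Dixon's test), 6 were flagged, where chance flags about 1 in 20 groups; in 3 of the 6 the other tumours were tied at 100%, so any UMI of the second isoenzyme would be flagged whatever its size, and the chance rate does not apply to them. The Hk2 share of hexokinase UMIs in neuronal cells was 87.5% in tumour 2, from 8 UMIs, against 27.3% to 37.5% in the other tumours. The Hk2 share in non-dividing cells was 70.0% in tumour 3, from 10 UMIs, against a tied 100% in the others. The Eno1 share of enolase UMIs was 55.6% in neuronal cells and 86.4% in all cells of tumour 1, the library with the most Eno2. In tumour 3 it was 98.4% in G2/M cells and 95.6% in non-dividing cells, where the other 3 tumours were tied at 100%.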

How the results depend on the processing

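The 16 calls of members kept their direction in every alternative that tested them. All 16 stayed called with library size alone, upper-quartile scaling, filterByExpr, doublets kept or without replicate 2; 15 with a mitochondrial share of at most 10% or with tumours 3 and 4 alone; 14 without replicate 1 or after a second thinning; 13 with no filter on low counts; 11 with DESeq2, stricter markers or without replicate 3; 10 at 1000 or more UMIs; 6 without replicate 4; and 2 with no replicate block or with tumours 1 and 2 alone, where Gpi1 was not tested. Of the 19 calls of other pathway genes that passed the minimum without their highest state, each of which kept its direction wherever tested, 10 stayed called without replicate 4, at 1000 or more UMIs or with no replicate block, 4 of 13 tested with tumours 1 and 2 alone, and 13 or more in every other alternative. Leaving out the replicate block, which pairs sums of 1 animal, cut the called genes to 671, 547, 136 and 91 in G2/M, S-phase and non-dividing against neuronal cells and in G2/M against non-dividing cells. In that order they were 735, 474, 212 and 103 with tumours 1 and 2 alone, 950, 827, 290 and 178 at 1000 or more UMIs, and 1180 to 1803, 943 to 1672, 424 to 840 and 182 to 342 on leaving out 1 tumour. Further changes were 223 for G2/M against non-dividing cells with DESeq2 and 1237 for S phase with stricter markers. Fewer genes were tested where tumours or cells were left out.

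The Hk2 share in the 3 progenitor states minus that in neuronal cells, 48.1 points, was 44.4 with stricter markers, 31.8 with tumours 1 and 2, 64.3 with tumours 3 and 4 and 42.1 to 61.9 without 1 tumour. In each of these settings the permutation test across the states no longer called the share. The same difference for Ldha, 24.3 points, was 27.7 at 1000 or more UMIs, 19.9 with tumours 1 and 2, 28.8 with tumours 3 and 4 and 21.6 to 28.8 without 1 tumour, and the share was likewise not called. With 2 tumours the permutation test cannot reach a p under 0.0417, or under 0.0833 for the Hk2 share in tumours 3 and 4. The Hk2 share could not be tested at a mitochondrial share of at most 10% or at 1000 UMIs, and the Eno1 share had no value at the former, since a sum then held neither isoenzyme; ties left the Eno1 share untestable in every setting. Mean whole-tumour Hk1 was 7.08 CPM at 1000 or more UMIs against 14.3, and stricter markers do not touch whole-tumour levels.

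Values not called in the main fit changed sign as follows. Ldha in G2/M against neuronal cells was -0.048 to 0.28 without 1 replicate (lowest without replicate 3) and -0.0405 with tumours 1 and 2. In G2/M against non-dividing cells, with tumours 1 and 2, Eno1 was 0.27, Ldha 0.12 and Pkm 0.20; Pkm was 0.13 with no filter and -0.15 to 0.10 without 1 replicate; Gpi1 was -0.29 to 0.24 without 1 replicate and 0.25 at 1000 UMIs; and Ldhb was 0.12 at 1000 UMIs. In non-dividing against neuronal cells, Aldoa was -0.036 with DESeq2, -0.032 with filterByExpr, -0.0009 with no filter, -0.27 to 0.11 without 1 replicate, -0.33 with tumours 1 and 2 and -0.0093 at a mitochondrial share of at most 10%, and Ldha was -0.16 with tumours 1 and 2. In S-phase against neuronal cells, Gpi1 was 0.047 with no replicate block, -0.23 to 0.10 without 1 replicate, 0.024 with tumours 3 and 4, 0.22 at a mitochondrial share of at most 10% and 0.19 at 1000 UMIs. The cause was not tested. The depth limits Hk1 and Eno2, which had 29 and 8 UMIs over the 16 sums.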
